A study of Mus musculus with 16 samples.

Results

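Male livers of hCYP2B6-Tg mice were compared with male livers of Cyp2b-null mice. The comparison used 8 of the 16 libraries of the series, the 4 male hCYP2B6-Tg libraries numbered 2, 3, 4 and 5 in their titles and the 4 male Cyp2b-null libraries numbered 1, 2, 3 and 4. All gene rows that passed a filter on low counts were tested, which left 13470 of 41585. Both genotypes were C57BL/6 mice kept for 16 weeks on a diet with 60% fat, so every library comes from a fat-fed animal and none from a lean one. The labels give the genotypes as Cyp2b-null and hCYP2B6-Tg and nothing more. The promoter and the cells in which the human gene is active, the mouse Cyp2b genes that are missing, whether hCYP2B6-Tg mice lack them too, the age of the mice and the hour of collection were not found in the labels. The series asks what human CYP2B6 does to liver transcripts in diet-induced obesity.

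CYP2B enzymes are cytochrome P450 monooxygenases of the endoplasmic reticulum. They oxidise drugs, steroids and polyunsaturated fatty acids, and hepatocytes switch their genes on through the nuclear receptor CAR, which drugs such as phenobarbital activate. Human CYP2B6 is the member of this family in human liver. In male mice the liver is also shaped by the pulses of growth hormone, by feeding and by the circadian clock, each of which drives its own set of transcripts.

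The male libraries held 5673380 to 8946107 counts, and expression is given below as CPM (counts scaled to a common library size). Ribosomal RNA rows took 4.27% to 9.31% of a male library, most in Cyp2b-null library 1. Alb, the hepatocyte gene for serum albumin, had 438753 to 759135 counts in every male library, and all 8 matched their labelled sex. The first 4 principal components of the male libraries carried 18.3%, 17.3%, 15.8% and 14% of the variance, so no single axis dominated. Cyp2b-null library 1 lay farthest out on the first. On it hCYP2B6-Tg libraries 2, 3 and 5, at 8.38, 22.2 and 17.8, lay above every Cyp2b-null library (-30.9 to 4.22). The hCYP2B6-Tg library 4, at -8.91, lay among the Cyp2b-null libraries. Pairs of libraries within a genotype differed by far more than counting noise (chi-square per degree of freedom 6.53 to 19.7). The labels do not say outright that each library is its own animal. The p-values therefore weigh a difference only against the spread between libraries, some of which may be technical. In the test of all genes that spread was estimated over all 16 libraries, male and female. In bulk liver, fewer cells of a type and less RNA per cell cannot be told apart.

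The mouse Cyp2b genes, which check the genotype labels, were almost silent in Cyp2b-null males and counted at a very low level in hCYP2B6-Tg males. They lie together on chromosome 7 (GRCm38.p6), and all 5 missed the filter. Cyp2b10 (chr7:25897658-25926624), the classical phenobarbital-inducible form, had 0 counts in each Cyp2b-null library and 3, 1, 15 and 14 counts in hCYP2B6-Tg libraries 2, 3, 4 and 5. Over pooled counts this is at least 9.84-fold higher, taking 3 counts over the group as the limit of a count of 0. Cyp2b23 (chr7:26665227-26686430) had 0 counts in each Cyp2b-null library against 2, 3, 25 and 8. Cyp2b19 (chr7:26757142-26772630), known as a form of the skin, had 0, 0, 1 and 0 counts against 4, 2, 10 and 12. The 5 genes and their sum were compared. For each of these 3 genes the groups did not overlap, with an exact two-sided permutation p = 0.0286 on the CPM values, the smallest that 4 against 4 libraries can give. Cyp2b9 (chr7:26173350-26210661), a form that females express more, overlapped between the genotypes, at 1, 2, 0 and 8 counts against 4, 1, 27 and 11 (exact permutation p = 0.229). Cyp2b13 (chr7:26061388-26096197) had 0 counts in all male libraries but hCYP2B6-Tg library 4, which had 3.

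Summed over the 5 genes, the Cyp2b-null males reached 0.436 ± 0.481 CPM and the hCYP2B6-Tg males 4.35 ± 3.60 CPM (SD, n = 4; exact permutation p = 0.0571). The sums overlapped, because Cyp2b-null library 4 had 8 counts and hCYP2B6-Tg library 3 had 7. Of the 145 counts in hCYP2B6-Tg males, 80 were in library 4. Reads of the human transgene may have been assigned to these similar mouse genes, and the split among near-identical Cyp2b genes is uncertain. The transgene itself was not analysed here.

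The transcriptomes of the male genotypes were close to each other. With edgeR's quasi-likelihood test, 15 genes differed at an adjusted p under 0.05, which is 0.111% of the genes tested, 7 of them higher (0.052%) and 8 lower (0.0594%) in hCYP2B6-Tg males. The median log2 fold change over all tested genes was -0.0043 with a median standard error of 0.17. The scaling of the libraries brings this median near 0, so it does not measure how close the genotypes are. An estimate of more than 1 in either direction was found for 141 genes. At an unadjusted p under 0.05 there were 966 genes (7.17%), 462 higher (3.43%) and 504 lower (3.74%). All 4 libraries of one genotype lay above all 4 of the other for 642 genes (4.77%), 323 higher (2.4%) and 319 lower (2.37%). All 15 genes were among them, but selection by p in the same libraries favours such genes, so this adds no support. Scaled by library totals alone, 12 genes passed, 3 higher and 9 lower, and by upper quartiles 12, 4 higher and 8 lower.

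**Figure D1:**
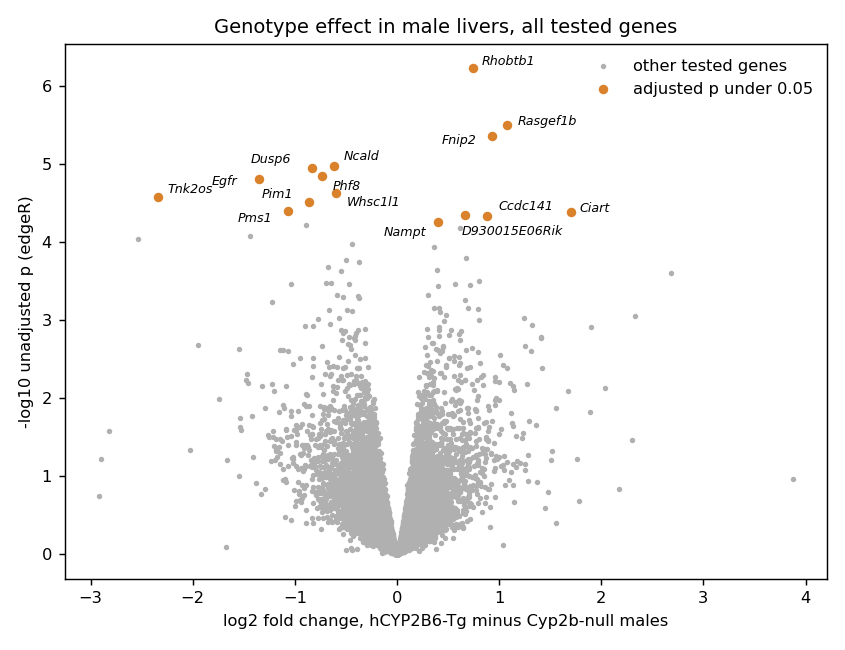
Genotype effect in male livers for the 13470 tested genes. The horizontal axis is the log2 fold change of hCYP2B6-Tg minus Cyp2b-null males, the vertical axis is -log10 of the unadjusted edgeR p, and each point is a gene. The 15 genes with an adjusted p under 0.05 are named. They include 7 to the right of 0 and 8 to the left, from Tnk2os at -2.34 to Ciart at 1.70.

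Growth factor signalling held the most abundant of the 15 genes. Egfr (chr11:16752203-16913907) encodes the receptor tyrosine kinase for EGF, TGF-alpha and amphiregulin, through which hepatocytes receive signals to divide. Its level was 358, 417, 433 and 413 CPM in Cyp2b-null libraries 1 to 4 and 168, 182, 143 and 142 CPM in hCYP2B6-Tg libraries 2 to 5, the order in which all values by library are given here. Every hCYP2B6-Tg library lay far below every Cyp2b-null library, and the spread within each genotype was small beside the gap. Egfr fell by 1.35 ± 0.21 on the log2 scale, a 2.55-fold difference (edgeR adjusted p = 0.0299). This adjusted p comes from a fit that shares its estimate of spread with the female libraries, where Egfr ran at 69.0 ± 18.2 CPM in livers without the transgene and 94.2 ± 27.5 CPM in hCYP2B6-Tg livers (SD, n = 4). In an edgeR fit of the 8 male libraries alone, Egfr had the smallest p of all genes (adjusted p = 6.1e-07). Without any one male library the shared fit gave 0.0536 to 0.0974.

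Dusp6 (chr10:99263231-99267489) encodes a phosphatase that switches off ERK, the kinase that acts below this receptor, and its own transcript is induced by ERK. Dusp6 was at 69.0, 47.6, 46.4 and 58.1 CPM in Cyp2b-null males and at 29.2, 31.5, 31.3 and 32.1 CPM in hCYP2B6-Tg males. The hCYP2B6-Tg libraries were nearly equal, while the Cyp2b-null libraries were spread. Dusp6 fell by 0.83 ± 0.14 (edgeR adjusted p = 0.0299). Pim1 (chr17:29490785-29496111), a serine/threonine kinase gene that cytokines and growth hormone induce through STAT5, was at 22.8, 29.3, 22.2 and 25.2 CPM against 15.7, 10.5, 13.6 and 14.8 CPM. It fell by 0.86 ± 0.17 (edgeR adjusted p = 0.0405), and its groups did not overlap.

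The other genes of these pathways did not move in one direction. Of 11 tested members of the EGF receptor family and its ligands, Egfr was the 1 that passed, with 5 higher and 6 lower estimates and a median of -0.08 that was 0.11 without Cyp2b-null library 4. Nrg4, a ligand of the related receptor ERBB4, was next, at 12.6, 13.3, 17.2 and 17 CPM against 20.5, 20.6, 20.7 and 24.1 CPM (log2 fold change 0.51 ± 0.14, edgeR adjusted p = 0.272). Of 20 tested ERK feedback and immediate early genes, Dusp6 was the 1 that passed, with 12 higher and 8 lower estimates and a median of 0.20 that was 0.11 without hCYP2B6-Tg library 5. Jun, a transcription factor gene induced by growth and stress signals, overlapped between the groups, with 34.9 CPM in hCYP2B6-Tg library 4 and 9.06 to 23.2 CPM in the others. Of 17 tested genes of growth hormone and STAT5 signalling, Pim1 was the 1 that passed, with 5 higher and 12 lower estimates. Its relative Pim2 had -0.69 ± 0.29, and Igfals, the subunit that holds IGF1 in the circulation, had -0.36 ± 0.16 (edgeR adjusted p = 0.607 and 0.658).

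Nutrient sensing and NAD metabolism each gave 1 gene that rose. Fnip2 (chr3:79455971-79568151) encodes a partner of folliculin and AMPK that helps set mTORC1 and lysosomal gene activity. Fnip2 was at 37.2, 32.7, 27.9 and 38.7 CPM in Cyp2b-null males and 70.6, 60.6, 76.0 and 52.4 CPM in hCYP2B6-Tg males, with a gap between the groups. It rose by 0.93 ± 0.15, 1.90-fold (edgeR adjusted p = 0.0196). Among 32 tested genes of the folliculin, AMPK and mTORC1 list, estimates were evenly divided, 16 higher and 16 lower. Prkab1 and Prkag2, which encode a beta and a gamma subunit of AMPK, had -0.36 ± 0.13 and 0.32 ± 0.12 (edgeR adjusted p = 0.514 and 0.540), with no overlap between the groups in either.

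Nampt (chr12:32820335-32853369) makes nicotinamide mononucleotide, the step that limits NAD salvage. Its values were even within each genotype, at 73.3, 76.9, 75.6 and 83.5 CPM against 105, 102, 99.5 and 102 CPM. Nampt rose by 0.40 ± 0.08, 1.32-fold (edgeR adjusted p = 0.0488). None of the other 22 tested genes of NAD synthesis and sirtuins passed, with 17 of 23 higher estimates in all and a median of 0.06. Nadk, the kinase that turns NAD into NADP, had 0.18 ± 0.08 with overlapping groups (edgeR adjusted p = 0.645).

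The circadian clock of the liver rests on a heterodimer of CLOCK and ARNTL that binds E-boxes (CACGTG) and drives genes whose products, among them the PER and CRY proteins and CIART, then repress it. Ciart (chr3:95878500-95882257) encodes such a repressor and had the largest rise of the 15 genes. It was at 0.903, 3.03, 2.98 and 1.73 CPM in Cyp2b-null males and at 9.32, 6.62, 5.74 and 7.72 CPM in hCYP2B6-Tg males. The lowest hCYP2B6-Tg library stood clearly above the highest Cyp2b-null library, and Cyp2b-null library 1 was the lowest of all. Ciart rose by 1.70 ± 0.34, 3.25-fold (edgeR adjusted p = 0.0437). Without any one male library its adjusted p was 0.0619 to 0.173, with estimates from 1.49 to 1.90.

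Promoter windows from RefSeq (GRCm38.p6, 250 bases before to 50 bases after an annotated start) were searched for CACGTG, which reads the same on both strands. Of the 15 genes 12 had an entry, and 3 of these held the motif in a window, Ciart, Rhobtb1 and Pim1. Of the tested genes with an entry, 11.9% held it, as did 7.15% of all 32851 windows in the table. These 3 windows are shown 5′ to 3′ on the strand of the gene, because they are the genes past the threshold with the letters of an E-box, and the capitals mark CACGTG. The first 2 genes rose and Pim1 fell.
Ciart, chr3:95882179-95882478, minus strand: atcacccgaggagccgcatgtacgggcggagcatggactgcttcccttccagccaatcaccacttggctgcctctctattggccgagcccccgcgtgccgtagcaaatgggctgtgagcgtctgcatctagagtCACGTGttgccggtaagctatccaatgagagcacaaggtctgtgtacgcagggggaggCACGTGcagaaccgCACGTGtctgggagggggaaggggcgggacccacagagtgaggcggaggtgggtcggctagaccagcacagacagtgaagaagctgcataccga
Rhobtb1, chr10:69212407-69212706, plus strand: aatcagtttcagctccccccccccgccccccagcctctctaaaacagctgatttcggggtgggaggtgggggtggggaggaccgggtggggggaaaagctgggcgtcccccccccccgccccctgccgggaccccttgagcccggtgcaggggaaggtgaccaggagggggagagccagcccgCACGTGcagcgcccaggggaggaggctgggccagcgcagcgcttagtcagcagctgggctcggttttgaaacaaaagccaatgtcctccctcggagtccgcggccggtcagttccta
Pim1, chr17:29492835-29493134, plus strand: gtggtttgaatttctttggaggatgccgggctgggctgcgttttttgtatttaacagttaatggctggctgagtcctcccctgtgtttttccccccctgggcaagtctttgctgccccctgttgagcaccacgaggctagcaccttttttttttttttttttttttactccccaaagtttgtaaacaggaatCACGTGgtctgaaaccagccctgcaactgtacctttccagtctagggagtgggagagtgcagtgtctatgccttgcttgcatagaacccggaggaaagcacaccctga
In the Ciart window the motif begins 116, 58 and 44 bases before the start. The single copies begin 67 bases before the start in the Rhobtb1 window and 58 bases before it in the Pim1 window, each the second of several windows listed for its gene. A copy of the letters is a description of the sequence and not a measured binding site. None of the 12 genes held the D-box TTATGTAA (either strand; 0.741% of tested genes with an entry), and Phf8 held the STAT motif TTCNNNGAA, as did 8.51% of tested genes.

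Of 13 tested clock repressors and PAR bZIP factors, 11 had higher estimates in hCYP2B6-Tg males (49% of all tested genes did) and the median was 0.43. Female livers also had higher estimates for 11 of the 13, with a median of 0.43, so the direction was not particular to males. In males Ciart passed, and 6 of 13 (46.2%) were at an unadjusted p under 0.05 and higher, against 3.43% of all genes. Per1, a period gene of the repressor complex, was at 8.31, 13.8, 11.5 and 10.5 CPM against 37.1, 23.2, 27.2 and 18 CPM (1.24 ± 0.30, edgeR adjusted p = 0.228). Bhlhe40, a repressor that itself competes for E-boxes, was at 70.1, 88.2, 85.9 and 93.7 CPM against 154, 122, 137 and 125 CPM (0.67 ± 0.14, edgeR adjusted p = 0.0985). Neither gene overlapped between the groups, and both passed in the fit of the male libraries alone, at an adjusted p of 0.046 for Per1 and 0.00757 for Bhlhe40. Cry2, another repressor, had 0.36 ± 0.14 with no overlap (edgeR adjusted p = 0.564).

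The repressor genes were not uniform. The hCYP2B6-Tg library 2 was the highest of the 8 male libraries for 9 of the 13 genes, and Cyp2b-null library 1 was the lowest for 6. Without hCYP2B6-Tg library 2 the median was 0.31, and without Cyp2b-null library 2 it was 0.59. Of the 5 tested activators and opposite-phase genes, 2 were higher and 3 lower. Rora, which activates Arntl, was at 79.3, 87.6, 68.0 and 86.5 CPM against 116, 111, 95.7 and 98.7 CPM (0.39 ± 0.09, edgeR adjusted p = 0.115). Nfil3, a repressor of the D-box that is highest when the PAR bZIP factors are lowest, was at 21.1, 18.7, 18.1 and 16.8 CPM against 14.8, 11.2, 13.1 and 12.3 CPM (-0.54 ± 0.15, edgeR adjusted p = 0.283). Arntl itself overlapped, at 5.96, 3.99, 2.30 and 4.75 CPM against 1.68, 1.69, 1.91 and 3.21 CPM (-0.94 ± 0.45, edgeR adjusted p = 0.700). The part of the hour of collection in these values was not tested. E-box letters were found for 5 of the 17 clock genes with a promoter entry, and for 11.9% of all tested genes with one.

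Regulators of small GTPases and ubiquitin ligases gave the genes with the smallest p. Rhobtb1 (chr10:69151058-69291791) encodes an atypical GTPase-domain protein that brings substrates to the CUL3 ubiquitin ligase. It was at 44.6, 47.2, 42.3 and 38.4 CPM in Cyp2b-null males and 79.9, 69.1, 68.5 and 71.6 CPM in hCYP2B6-Tg males, and no library came near the other group. Rhobtb1 rose by 0.74 ± 0.11, 1.67-fold (edgeR adjusted p = 0.00791). It passed without any one of the 8 male libraries, at adjusted p 0.012 to 0.0453, and was the only one of the 15 genes to do so. Without both male libraries numbered 4 it did not pass (0.0916). Rasgef1b (chr5:99217420-99252927), a guanine nucleotide exchange factor for small GTPases of the RAS family, was at 5.06, 7.70, 5.01 and 6.33 CPM against 11.8, 13.4, 12 and 14 CPM. It rose by 1.08 ± 0.18, 2.11-fold (edgeR adjusted p = 0.0196), and its groups were well apart. Of 24 tested exchange factors and RhoBTB adaptors these were the 2 that passed, and the list was divided, with 13 higher and 11 lower.

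Chromatin and DNA repair genes among the 15 all fell. Phf8 (chrX:151520641-151633859), a histone demethylase with a PHD finger, was at 17.2, 16.4, 17.5 and 20.3 CPM against 9.93, 12.5, 9.68 and 10.8 CPM. It fell by 0.74 ± 0.13 (edgeR adjusted p = 0.0299). Whsc1l1, now called Nsd3 (chr8:25601601-25719667), encodes a histone H3 lysine methyltransferase and was at 82.2, 69.9, 62.9 and 84.6 CPM against 50.7, 48.3, 53.7 and 45.6 CPM. It fell by 0.59 ± 0.11 (edgeR adjusted p = 0.0391), and neither gene overlapped between the groups. Among 38 tested histone lysine methylation enzymes these were the 2 that passed, 26 had lower estimates and 6 were lower at an unadjusted p under 0.05, as were 3.74% of all genes. The median was -0.09, and -0.03 without Cyp2b-null library 1, which was the highest library for 16 of the 38 genes and had the largest share of ribosomal RNA. Ehmt1, an H3K9 methyltransferase, was at 25.3, 24.1, 23.4 and 24.6 CPM against 20.8, 19.8, 20.6 and 19.0 CPM (-0.28 ± 0.10, edgeR adjusted p = 0.483).

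Pms1 (chr1:53189187-53297031), a MutL homologue of DNA mismatch repair, was at 11.0, 9.36, 9.47 and 8.06 CPM against 3.82, 6.31, 3.38 and 4.75 CPM. It fell by 1.06 ± 0.21 (edgeR adjusted p = 0.0437) with no overlap. Of the 9 tested mismatch repair genes none of the other 8 passed, and Msh6, which takes part in finding mismatches, had -0.29 ± 0.13 with overlapping groups (edgeR adjusted p = 0.658).

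The remaining genes past the threshold shared no list. Ncald (chr15:37366175-37792519), a calcium sensor of the recoverin family, was at 25.8, 24.6, 26.1 and 24.6 CPM against 17.9, 17.2, 15 and 16.3 CPM, very even within each group. It fell by 0.61 ± 0.11 (edgeR adjusted p = 0.0299). Itpr3, an inositol trisphosphate receptor that releases calcium, was also lower without overlap, at 2.53, 1.79, 1.35 and 4.75 CPM against 1.22, 1.08, 1.13 and 1.31 CPM (-1.11 ± 0.41, edgeR adjusted p = 0.536). Its highest value was in Cyp2b-null library 4. Of 8 tested genes of calcium sensors and phosphatidylinositol calcium signalling, 3 were higher and 5 lower. Their median of -0.01 ran from -0.09 to 0.10 over the alternatives. Ccdc141 (chr2:77009902-77173769), a coiled-coil protein gene, was at 8.85, 7.70, 5.14 and 6.76 CPM against 15.3, 10.9, 13.4 and 12.5 CPM and rose by 0.88 ± 0.18. D930015E06Rik, now Tmem131l (chr3:83898205-84040190), was at 22.9, 21.6, 16.5 and 17.4 CPM against 33.9, 32.5, 28.6 and 29.7 CPM and rose by 0.67 ± 0.13 (edgeR adjusted p = 0.0437 for both).

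Tnk2os (chr16:32665223-32668197), a non-coding RNA antisense to the kinase gene Tnk2, was scarce and had the largest fold change of the 15 genes. It was at 2.17, 1.65, 1.62 and 1.58 CPM against 0.458, 0.154, 0.338 and 0.356 CPM, and fell by 2.34 ± 0.45, 5.06-fold (edgeR adjusted p = 0.0391). The hCYP2B6-Tg values lie near the level of 3 counts (0.338 to 0.462 CPM in these libraries), so the size of the fold is poorly fixed. No strand setting is known for these counts, so reads of Tnk2 may have been counted for Tnk2os, which was not tested.

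**Figure D2:**
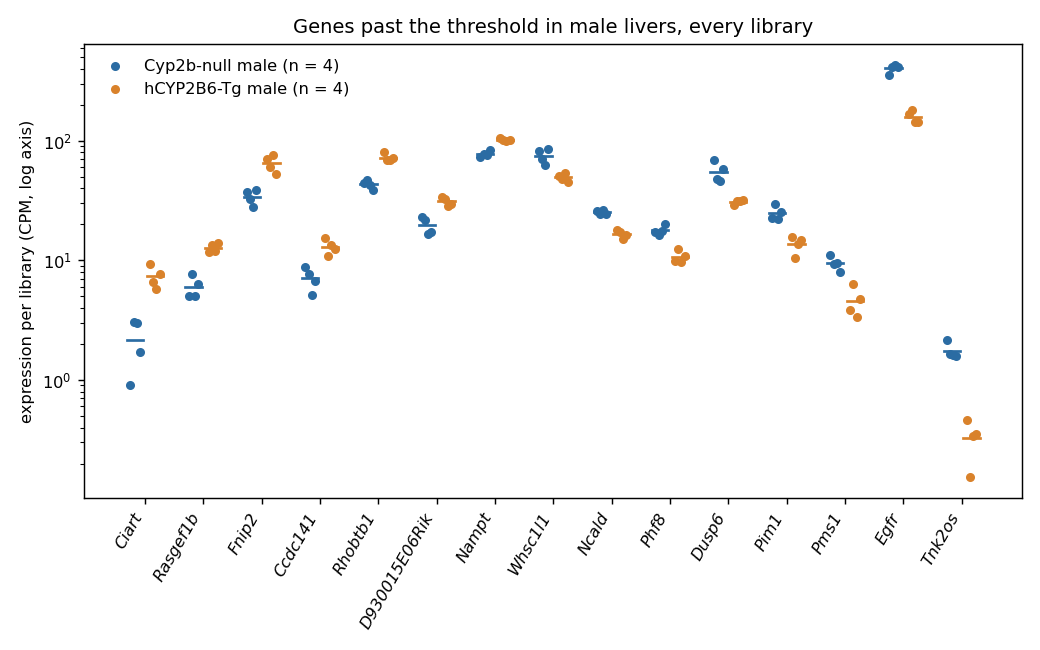
Expression of the 15 genes past the threshold in every male library, as CPM on a log axis, with Cyp2b-null males in blue and hCYP2B6-Tg males in orange. Each point is a library and each bar the mean of 4. For no gene do the points of the genotypes overlap, and Egfr stands highest, with 358 to 433 CPM against 142 to 182 CPM.

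The calls depended on each library. Leaving out any one male library reduced the 15 genes to between 2 (without Cyp2b-null library 4, or without hCYP2B6-Tg library 4 or 5) and 8 (without Cyp2b-null library 1). Without Cyp2b-null library 2 or 3 there were 3, and without hCYP2B6-Tg libraries 2 and 3 there were 6 and 5. No estimate of the 15 changed sign under any of the alternatives tried. In the fit of the 8 male libraries alone 26 genes passed, 13 of them among the 15, and without both libraries numbered 4 edgeR called 0 genes, with 977 at an unadjusted p under 0.05.

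The 20 named genes next in order of p had edgeR adjusted p of 0.051 to 0.168, with 10 higher and 10 lower. Of these, 19 did not overlap between the groups, against 4.77% of all tested genes. Ranking by p in the same comparison favours genes without overlap, so this count adds no support. Among the 20 were the receptor genes Avpr1a, Lifr, Nrp1 and Unc5b. Avpr1a, the vasopressin receptor of hepatocytes that raises calcium, was at 22.4, 23.7, 24.6 and 18.3 CPM against 13.3, 13.1, 6.75 and 15.3 CPM (-0.89 ± 0.18, adjusted p = 0.051). Lifr, the receptor subunit for leukaemia inhibitory factor, was at 263, 322, 267 and 297 CPM against 199, 196, 118 and 195 CPM (-0.70 ± 0.16, adjusted p = 0.134), lowest in hCYP2B6-Tg library 4 as was Avpr1a. Nrp1, a co-receptor for VEGF and semaphorins, had -0.44 ± 0.10, and Unc5b, a netrin receptor, had 0.80 ± 0.19 (edgeR adjusted p = 0.0707 and 0.134).

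Metabolic genes formed another group among these 20. Gbe1, the glycogen branching enzyme, was at 179, 192, 180 and 195 CPM against 214, 256, 221 and 232 CPM (0.31 ± 0.08, edgeR adjusted p = 0.168), higher in hCYP2B6-Tg males without overlap. Slc39a4, a zinc importer, was the 1 of the 20 with overlap, at 19.0, 18, 13.3 and 16.1 CPM against 13.9, 9.85, 10.6 and 7.48 CPM (-0.67 ± 0.15, edgeR adjusted p = 0.110). Tymp, thymidine phosphorylase, had -0.59 ± 0.14 (adjusted p = 0.168).

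Transcriptional and cytoskeletal regulators made up most of the rest. Ajuba, a LIM protein that restrains the Hippo pathway, was at 6.68, 5.64, 5.95 and 3.74 CPM against 1.53, 1.69, 1.58 and 3.09 CPM (-1.44 ± 0.30, edgeR adjusted p = 0.0612). E2f8, a repressor of the cell cycle that drives hepatocyte polyploidy, was at 15.7, 21.9, 22.6 and 21.9 CPM against 11.1, 7.54, 9.68 and 11.5 CPM (-1.04 ± 0.24, edgeR adjusted p = 0.134). Both were lower in every hCYP2B6-Tg library. The zinc finger genes Zfp609 and Zfp445 had -0.50 ± 0.11 and -0.37 ± 0.08, the ubiquitin ligase gene Rnf217 -0.55 ± 0.13, and Wipf3, which binds WASP proteins, 0.71 ± 0.17 (edgeR adjusted p 0.0988 to 0.134). Ttc23, a gene of the primary cilium, had 0.61 ± 0.13 and D1Ertd622e 0.56 ± 0.13. Adamtsl1, an extracellular matrix gene, was at most 2.15 CPM in any male library. Bhlhe40 and Rora of the clock complete the 20.

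The genotype effect was not the same in both sexes for 6 genes, by edgeR's test of the difference between the male and the female effect (0.0445% of genes tested). Of the 15 genes 3 were among them. Rasgef1b rose in males and had -0.23 ± 0.16 in females (difference 1.30 ± 0.24, adjusted p = 0.042). Its level in Cyp2b-null livers was lower in males (6.02 ± 1.28 CPM) than in females (14.8 ± 3.54 CPM), and the hCYP2B6-Tg males were at 12.8 ± 1.07 CPM. Ccdc141 had 0.88 in males and -0.49 ± 0.16 in females (difference 1.38 ± 0.24, adjusted p = 0.042), and Pim1 -0.86 and 0.56 ± 0.18 (difference -1.42 ± 0.24, adjusted p = 0.042).

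The other 3 genes did not pass in the male comparison of the shared fit, though E2f8 passed in the fit of the 8 male libraries alone (edgeR adjusted p = 0.00757). E2f8 had -1.04 in males and 0.87 ± 0.23 in females (difference -1.92 ± 0.33, edgeR adjusted p = 0.0445). Ablim3, an actin-binding LIM protein, had -0.51 ± 0.14 and 0.55 ± 0.14 (difference -1.07 ± 0.20, adjusted p = 0.0445), and Wipf3 0.71 and -0.63 ± 0.17 (difference 1.35 ± 0.24, adjusted p = 0.042). The male and female estimates had opposite signs in all 6. For Egfr the difference was -1.80 ± 0.30, with 0.45 ± 0.21 in females, and missed the threshold (edgeR adjusted p = 0.0539). The female estimate pointed the same way as the male one for 9 of the 15 genes and the other way for 6. Ciart and Nampt had female effects of 0.87 and 0.18, and no difference was detected between the sexes for them (adjusted p = 0.756 and 0.663). Leaving out Cyp2b-null male library 2, 3 or 4, or hCYP2B6-Tg male library 3, 4 or 5, left 0 genes in this test with edgeR (903 to 1109 at an unadjusted p under 0.05).

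**Figure D3:**
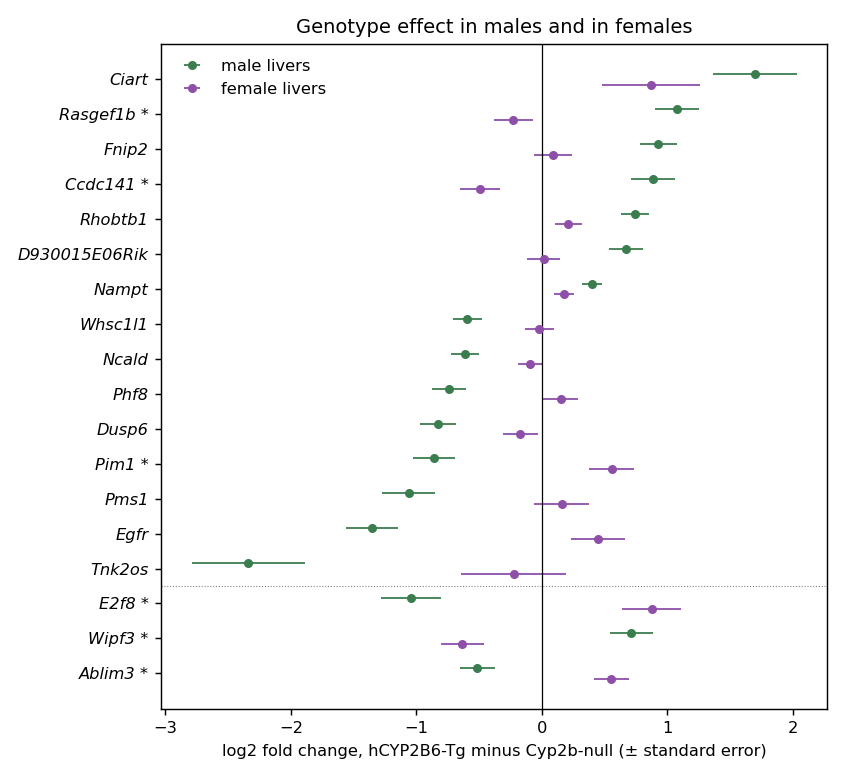
Log2 fold change of hCYP2B6-Tg minus Cyp2b-null livers in males (green) and females (purple) for the 15 genes past the threshold in males and, below the dotted line, the 3 others past the threshold in the test of the difference between the sexes. Bars are standard errors and asterisks mark an adjusted p under 0.05 in that test. Males and females lie on opposite sides of 0 for all 6 marked genes, and Ciart is to the right of 0 in both.

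Genes for making fat had higher estimates in hCYP2B6-Tg males, none of which passed over all genes. Lipogenesis turns citrate from glucose into fatty acids under the control of insulin, SREBP1c and ChREBP. Of 23 tested genes 19 had higher estimates, the median was 0.47, and 9 (39.1%) were higher at an unadjusted p under 0.05 against 3.43% of all genes. Me1, the malic enzyme that supplies NADPH, was at 131, 126, 95.9 and 107 CPM against 139, 228, 172 and 216 CPM (0.72 ± 0.21, edgeR adjusted p = 0.370). Acaca, acetyl-CoA carboxylase, was at 61.2, 63.8, 49.1 and 51.5 CPM against 73.6, 101, 72.3 and 97.7 CPM (0.61 ± 0.19, adjusted p = 0.411). Pklr, liver pyruvate kinase, was at 324, 298, 280 and 296 CPM against 377, 450, 343 and 482 CPM (0.46 ± 0.15, edgeR adjusted p = 0.411). These groups did not overlap, and in each gene hCYP2B6-Tg libraries 3 and 5 were the highest.

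The same libraries led across the list. The hCYP2B6-Tg libraries 3 and 5 were the highest pair for 12 of the 23 lipogenic genes, and each was the top library for 9. Cyp2b-null library 3 was the lowest for 15. Estimates in the list ran from -0.28 to 1.56, and 4 of the 23 were lower. Thrsp and Fasn, named after their values were seen, both lie above the median and do not show this range. Thrsp, a regulator of lipogenesis, was at 332, 480, 218 and 342 CPM against 783, 1237, 566 and 1465 CPM (1.56 ± 0.54, edgeR adjusted p = 0.536). Fasn, fatty acid synthase, was at 1027, 908, 541 and 479 CPM against 1044, 1944, 753 and 2034 CPM and overlapped (0.97 ± 0.45, edgeR adjusted p = 0.705). Leaving out any one male library kept the median between 0.42 and 0.62.

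Triglyceride and cholesterol genes had smaller estimates. Of 26 tested genes of triglyceride assembly and lipid droplets, 19 were higher (49% of all tested genes were), with a median of 0.10. At an unadjusted p under 0.05, 7 were higher, against 3.43% of all genes. Lpin1, a phosphatidate phosphatase that makes diacylglycerol, was at 64.6, 94.5, 49.9 and 120 CPM against 149, 232, 155 and 262 CPM (1.28 ± 0.39, edgeR adjusted p = 0.432). Hsd17b13, a lipid droplet enzyme, was at 322, 293, 347 and 363 CPM against 402, 439, 518 and 384 CPM (0.40 ± 0.12, edgeR adjusted p = 0.359). Cidec, which fuses lipid droplets, overlapped, at 22.3 and 25.6 CPM in hCYP2B6-Tg libraries 3 and 4 and 7.43 to 11.4 CPM elsewhere. Of 26 tested genes of cholesterol synthesis and uptake 23 were higher, and the median was 0.24. At an unadjusted p under 0.05, 5 (19.2%) were higher, against 3.43% of all genes. Insig1, which holds back SREBP when sterols are plentiful, was at 420, 470, 346 and 369 CPM against 602, 550, 415 and 551 CPM (0.40 ± 0.18, edgeR adjusted p = 0.658), with hCYP2B6-Tg library 4 inside the Cyp2b-null range. Cyp2b-null library 3 was the lowest for 16 of the 26 genes, and the median without it was 0.16.

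Genes of sugar metabolism were higher in part. Of 35 tested genes of glycolysis and gluconeogenesis 26 had higher estimates (49% of all tested genes did), with a median of 0.13. Of these, 8 were higher at an unadjusted p under 0.05, against 3.43% of all genes. Besides Pklr they included Slc37a4, the glucose 6-phosphate carrier of the endoplasmic reticulum, at 132, 124, 138 and 132 CPM against 173, 161, 158 and 206 CPM (0.41 ± 0.11, edgeR adjusted p = 0.257). Slc2a2, the glucose transporter of hepatocytes, was at 363, 381, 372 and 403 CPM against 446, 476, 438 and 510 CPM (0.30 ± 0.08, edgeR adjusted p = 0.273). Neither overlapped between the groups. Foxo1, the transcription factor that insulin restrains, had 0.40 ± 0.12 with no overlap (adjusted p = 0.307), while its list of 24 insulin signalling genes had 11 higher and 13 lower estimates.

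Oxidative and drug-handling genes showed little. Of 34 tested genes of fatty acid oxidation and PPAR alpha targets, edgeR called 0 at an adjusted p and 0 at an unadjusted p under 0.05, with a median of 0.05. The hCYP2B6-Tg library 4 was the highest for 23 of these 34 genes, and the median was -0.06 without it. The hormone gene Fgf21 was lower without overlap, at 8.13, 4.82, 6.90 and 5.04 CPM against 3.05, 3.23, 3.60 and 2.26 CPM (-1.02 ± 0.49, edgeR adjusted p = 0.707). Of 38 tested genes of oxidative phosphorylation 35 had higher estimates (49% of all tested genes did) but the median was only 0.11. At an unadjusted p under 0.05, 3 (7.89%) were higher, against 3.43% of all genes. Cyp2b-null library 1 was the lowest for 24 of these 38 genes, and the median without it was 0.08. Among 44 tested CAR and PXR targets and drug metabolism genes 24 were higher and 20 lower, with a median of 0.05 that was -0.01 without both libraries numbered 4. Cyp3a11, the main PXR target, was at 1048, 772, 592 and 935 CPM against 1227, 1063, 1543 and 1057 CPM (0.55 ± 0.20, edgeR adjusted p = 0.540). The nuclear receptor partner gene Rxra was lower without overlap (-0.23 ± 0.08, edgeR adjusted p = 0.507).

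**Figure D4:**
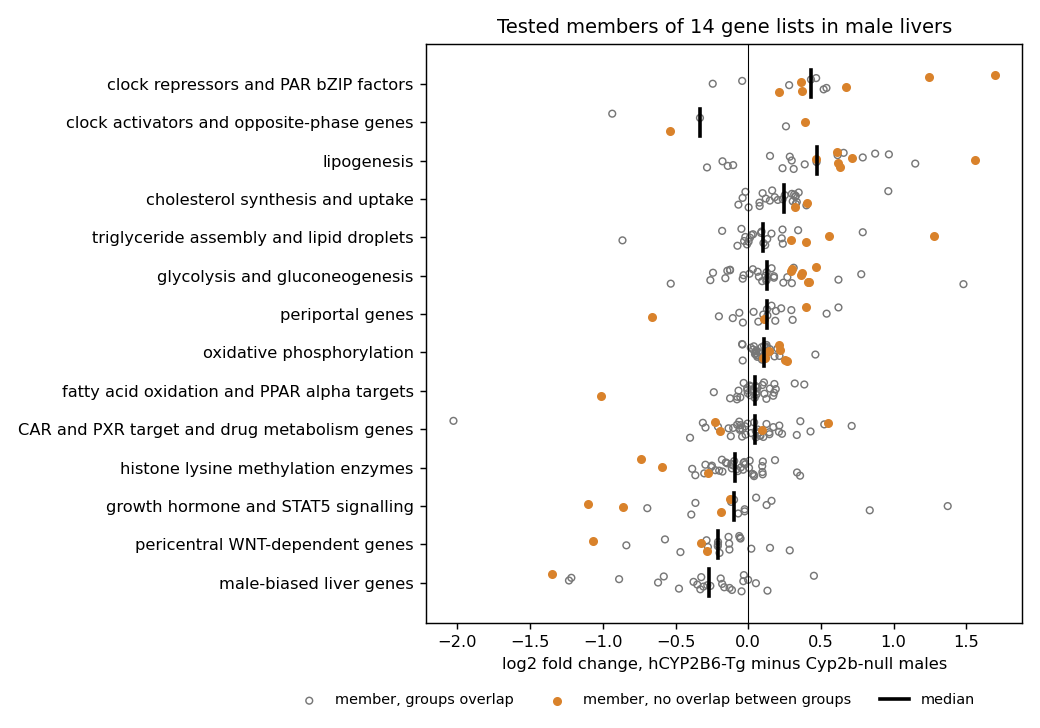
Log2 fold change of hCYP2B6-Tg minus Cyp2b-null males for the tested members of 14 gene lists. Each circle is a gene, filled where the libraries of the genotypes did not overlap, and black bars are medians. Medians run from 0.47 for lipogenesis and 0.43 for clock repressors to -0.27 for male-biased liver genes and -0.33 for the 5 clock activators and opposite-phase genes.

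Bile acid genes included some of the lower values. Nr0b2, the repressor SHP that bile acids induce through FXR, was at 51.3, 41.8, 58.6 and 86.6 CPM against 17.9, 27.7, 36.4 and 19.6 CPM (-1.22 ± 0.27, edgeR adjusted p = 0.180). Cyp7a1, the rate-limiting enzyme of bile acid synthesis, was at 278, 408, 178 and 190 CPM against 139, 127, 122 and 174 CPM (-0.91 ± 0.31, edgeR adjusted p = 0.534). Hsd3b7, a later enzyme of the same route, was at 507, 510, 512 and 507 CPM against 410, 400, 414 and 413 CPM (-0.31 ± 0.10, adjusted p = 0.426). All 3 were lower without overlap. SHP is known as a repressor of Cyp7a1. Cyp39a1, an oxysterol hydroxylase, went the other way at 0.44 ± 0.17 with overlap, and the 28 tested genes were divided, 13 higher and 15 lower.

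Pericentral and male-biased genes also had lower estimates. Pericentral genes, which depend on WNT from the central vein, were lower for 18 of 21 tested, with a median of -0.21, and 7 (33.3%) were lower at an unadjusted p under 0.05 against 3.74% of all genes. Tbx3, a transcription factor gene and WNT target, was at 52.7, 34.9, 42.6 and 36.1 CPM against 18.2, 15.8, 32.5 and 12 CPM (-1.06 ± 0.29, edgeR adjusted p = 0.307). The WNT feedback gene Axin2 overlapped, at 9.75, 7.70, 5.55 and 9.50 CPM against 5.19, 4.77, 7.88 and 3.56 CPM (-0.57 ± 0.22, edgeR adjusted p = 0.554). In both genes hCYP2B6-Tg library 4 was the highest of its group and library 5 the lowest. Cldn2, a tight junction gene, had -0.29 ± 0.09 with no overlap (edgeR adjusted p = 0.370). Without Cyp2b-null library 2 the median was -0.12. Periportal genes were higher for 15 of 20, with a median of 0.13 that was 0.32 without both libraries numbered 4.

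Of 26 tested male-biased liver genes 23 were lower, Egfr among them, with a median of -0.27. The hCYP2B6-Tg library 4 was the lowest library for 12 of the 26, and the median was -0.09 without it and -0.04 without both libraries numbered 4. Hsd3b5, a steroid dehydrogenase of male liver, was at 51.8, 171, 128 and 168 CPM against 71.2, 51.5, 1.80 and 101 CPM (-1.22 ± 0.51, edgeR adjusted p = 0.607). Its low value in hCYP2B6-Tg library 4 was far from every other male library. Of 32 tested female-biased genes 18 were higher and 14 lower. Cyp2a4, a testosterone hydroxylase beside the Cyp2b genes, was at 60.3, 91.6, 32.5 and 44.2 CPM against 166, 94.2, 108 and 100 CPM (1.04 ± 0.29, edgeR adjusted p = 0.370).

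**Figure D5:**
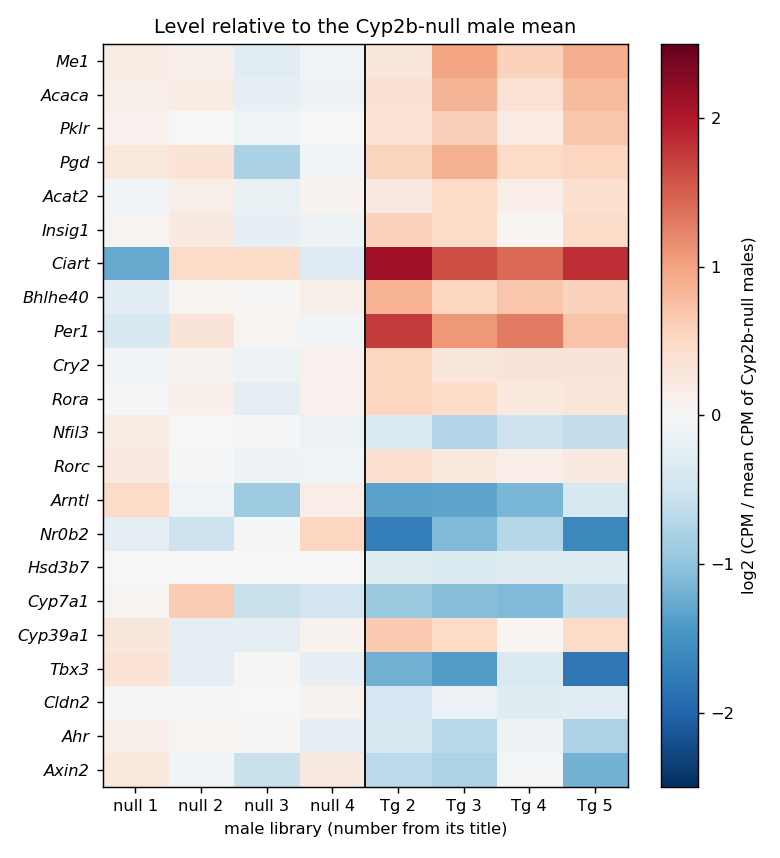
Level of 22 genes in each male library relative to the mean of the Cyp2b-null males, as log2 of the ratio of CPM, with red above and blue below. The genes are up to 4 with the smallest p in each of 6 lists (lipogenesis, cholesterol, clock repressors, clock activators, bile acids, pericentral), in that order from top to bottom. Among the hCYP2B6-Tg libraries, Insig1 runs from 0.05 in library 4 to 0.59 in library 2, and Per1 from 0.71 in library 5 to 1.75 in library 2.

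Markers of other cell types were uneven in 1 library. The cholangiocyte markers summed to 137 CPM in Cyp2b-null library 4 and to 23.5 to 43.1 CPM in the other 7 male libraries, with Krt19 at 270 counts against 0 to 8 and Muc1 at 222 counts against 0 to 4. Pancreas markers summed to 59.1 CPM there and 15.4 to 26.6 CPM elsewhere, and 14 of the 19 pancreas genes had 0 counts in all male libraries. Muscle markers summed to 6.62 CPM there and 0.305 to 2.81 CPM elsewhere, and 8 of the 11 muscle genes had 0 counts in all male libraries. Most of that sum was the smooth muscle gene Myh11, at 42 counts there and 0 to 13 elsewhere. Endothelial markers had higher estimates in hCYP2B6-Tg males for 13 of 18 genes, with sums of 586 to 656 CPM against 545 to 593 CPM, and macrophage markers for 9 of 14, with overlapping sums. Without Cyp2b-null library 4, edgeR called 2 genes in place of 15, Rhobtb1 and Fnip2 (adjusted p = 0.0453 for both). It likewise called 2 without hCYP2B6-Tg library 4 and 2 without hCYP2B6-Tg library 5, so the drop is not particular to this library. The part of these other cells in the results was not tested.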

How the data were processed

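The authors deposited 1 table of whole-number read counts per gene symbol and library. The build GRCm38.p6 and the tools GSNAP, Subread, Trimmomatic, FastQC and edgeR appear in the submitters' processing notes. Tool versions, strand setting and the treatment of multi-mapped reads: not given in the sources used here. Libraries were made with an NEB Next Ultra RNA kit from Trizol RNA, per the labels. Library names and groups come from the titles. Of 41585 rows 16032 had no count in any library, 27 had names turned into dates, and 3 empty columns were not used.

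Counts were filtered with edgeR's filterByExpr, scaled by TMM and tested with the quasi-likelihood F test (glmQLFit, robust, legacy off; two-sided) in 1 fit of the 4 groups of the series (16 libraries). P-values were Benjamini-Hochberg adjusted across 13470 genes, with 0.05 as threshold. Each standard error is the fold change divided by the root of its F. CPM values use TMM-scaled totals. Rows under the filter were compared by exact permutation. Limits for a count of 0 take 3 counts and cover counting error only. The scripts were tested on simulated data. The tools were edgeR 4.0.16, DESeq2 1.42.0 and limma 3.58.1 in R 4.3.3, and Python 3.11.15 for motifs and figures. Coordinates and promoters are RefSeq's for GRCm38.p6, by symbol or, for 2 of the 15 genes, by synonym.

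Named were all genes past the threshold in males or in the difference between the sexes, the next 20 by p with at least 1 CPM and no predicted or clone name, up to 4 members of each list by p, and the 5 Cyp2b genes. A few genes that this rule selects are not reported here. The 37 gene lists, the 11 marker lists and the genes compared were chosen with earlier results of these data known. Lists are described by counts and medians, with no test. Alternatives were other scalings, filters and tools, a fit of the male libraries alone, the replicate number as a block, the table without ribosomal RNA rows, and leaving out each male library. Added after the data were seen were edgeR's older quasi-likelihood method and leaving out both male libraries numbered 4. Same-numbered male libraries deviated from their group means with correlations of 0.0388, 0.0519 and 0.0441.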

Additional observations from a re-analysis of the deposited data

Results flagged for a closer look

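In 4 of 58 groups of 4 libraries, a single library stood apart by Dixon's ratio of the gap to the range, above its 95% critical value, and chance alone marks about 1 in 20 groups. Tnk2os was at 2.17 CPM in Cyp2b-null male library 1 and 1.58 to 1.65 CPM in the other Cyp2b-null males. The sum of the Cyp2b genes was 1.15 CPM in Cyp2b-null male library 4 and 0.135 to 0.275 CPM in the others. In that library the cholangiocyte markers summed to 137 CPM against 23.5 to 35.6 CPM. The muscle markers summed to 6.62 CPM, most of it Myh11 at 6.04 CPM, against 1.10 to 1.44 CPM. The part of those cells in the genotype results was not tested.

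For 6 genes the genotype effect differed between males and females by edgeR's test of the difference. As male effect minus female effect on the log2 scale, the values were 1.30 for Rasgef1b, -1.42 for Pim1, 1.38 for Ccdc141, -1.92 for E2f8, 1.35 for Wipf3 and -1.07 for Ablim3. The adjusted p was 0.042 for Rasgef1b, Pim1, Ccdc141 and Wipf3 and 0.0445 for E2f8 and Ablim3.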

How the results depend on the processing

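The number of genes past the threshold in males, 15 with the chosen settings, was 47 with DESeq2, 6 with limma voom, 25 with limma voom and quality weights, 26 in edgeR on the 8 male libraries alone, and 2 to 8 when any one male library was left out. Without both male libraries numbered 4 edgeR called 0 (977 genes at an unadjusted p under 0.05). It was 12 to 22 with other scalings, filters, the table without ribosomal RNA rows and edgeR's older method. Of the 15 genes, 12 were among the 47 of DESeq2, 6 among the 6 of voom and 13 among the 26. No estimate of the 15 genes changed sign in 315 refits, of which 148 did not keep the call. Counted among the 148 are the DESeq2 refits of Tnk2os, Pms1 and Ciart, to which DESeq2 gave no adjusted p. The difference between the sexes, 6 genes, was 16 with DESeq2, 3 with voom, 0 by library totals alone (1063 at an unadjusted p under 0.05 in edgeR) and without both libraries numbered 4 (1116), and 0 to 5 with a male library left out. It has no value in the male libraries alone and was not refitted without ribosomal RNA rows. The cause of these shifts was not tested, beyond fewer libraries in the leave-out fits. Median list estimates kept within the spread in 744 of 756 refits.

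The replicate number was also used as a block, though the labels do not tie it to litter, cage or day. In that fit 14 genes passed in males, 3 of them among the 15, and 10 in the difference between the sexes. Numbers 1 and 5 each occur in only 1 male genotype, so its male estimates rest on the libraries numbered 2, 3 and 4. Same-numbered libraries did not deviate together (correlations of at most 0.0519), so the numbers were not taken to pair them. The difference in summed Cyp2b expression, 3.92 CPM, was 2.37 to 5.01 CPM with a male library left out, with the exact permutation p between 0.0286 and 0.143. At 5673380 to 8946107 counts, a count of 0 in a male library allows up to 0.338 to 0.542 CPM.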

Other observations

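Several other liver gene lists had medians near 0 in the male comparison, and some of these medians moved with single libraries. Of 26 tested acute phase and inflammatory genes and 27 of heme and iron, edgeR called 0 at an adjusted p and 0 at an unadjusted p under 0.05, with medians of -0.05 and 0.0037. Cyp2b-null library 3 was the highest for 12 of the 26 acute phase genes and hCYP2B6-Tg library 4 for 10. The acute phase median was 0.03 without the former, -0.20 without the latter and -0.26 without both libraries numbered 4. Heat shock genes likewise had 0 of 21 at either, with a median of 0.05 that was -0.05 without hCYP2B6-Tg library 5. Of 30 interferon-stimulated genes 19 were lower and 1 was at an unadjusted p under 0.05, Iigp1, an interferon-induced GTPase, at 471, 542, 421 and 392 CPM against 350, 396, 363 and 404 CPM (-0.27 ± 0.11, adjusted p = 0.594). Of 25 genes of the unfolded protein response 1 was, the sensor gene Ern1, at 44.4, 47.6, 50.2 and 38.3 CPM against 32.2, 36.2, 35 and 37.6 CPM (-0.36 ± 0.13, adjusted p = 0.536). The median of these 25 genes was -0.0042, and 0.14 without Cyp2b-null library 3, which was the highest for 21 of them.

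Desaturase genes for polyunsaturated fatty acids, the substrates of CYP2B enzymes among others, had modest estimates. Fads1 was at 824, 831, 734 and 716 CPM against 1019, 1174, 712 and 981 CPM (0.32 ± 0.12, edgeR adjusted p = 0.536), and Fads2 had 0.39 ± 0.14. In both genes the groups overlapped through hCYP2B6-Tg library 4, the lowest of its group. Of 26 tested desaturases, elongases and oxylipin enzymes 16 were higher, with a median of 0.05. Apoa4, an apolipoprotein of triglyceride-rich particles, was at 347, 321, 372 and 419 CPM against 404, 670, 750 and 483 CPM (0.66 ± 0.20, edgeR adjusted p = 0.426), and the 24 tested lipoprotein genes were divided, 13 higher and 11 lower.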
